A study of Rattus norvegicus with 3 samples.

Results

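The 10 circadian clock genes Per1, Per2, Per3, Cry1, Cry2, Nr1d1, Nr1d2, Dbp, Bmal1 and Clock were followed across 3 preparations of rat renal proximal tubules. They were found as every probe set annotated to exactly 1 gene symbol, that symbol being 1 of the 10, which gave 18 of the 20826 probe sets with 1 gene and 10 of the 14217 named genes. The pathway was chosen by its differences in signal between these same 3 arrays, so the differences below are a description and were not tested. All animals were male Sprague-Dawley rats of 7 to 8 weeks that were given 250 units of heparin 30 min before decapitation. Kidneys were flushed through the aorta with 10 ml of cold PBS, a salt buffer, followed by 10 ml of collagenase at 2 mg/ml, and cortex was digested for 20 min before the tubules were separated on 42.5% Percoll. The 3 arrays formed 1 group with no control, and every sample shared the heparin, the perfusion and the enzyme digestion. The labels give no time of day for the collection, and they leave unsaid how many animals went into each preparation. An SD over the arrays therefore measures the spread between these samples only, which may be technical.

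The circadian clock is a feedback loop in which the paired factors CLOCK and BMAL1 switch on genes that carry an E-box, among them the Period, Cryptochrome and Rev-erb genes and Dbp. The Period and Cryptochrome proteins then hold CLOCK and BMAL1 back, while the Rev-erb proteins (from Nr1d1 and Nr1d2) repress Bmal1 through the ROR element. In rodent liver and kidney the mRNAs of Period genes and Dbp peak at another part of the day than those of Bmal1, Npas2 and Nfil3, and Clock mRNA varies little. In the renal tubule the clock is known for daily rhythms of sodium transport.

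The elements through which these genes act on each other were searched in the 250 bases before each annotated start in RefSeq's GRCr8 assembly, and 9 of the 10 genes had such a window. The search took the E-box CACGTG, its variant CACGTT (the E-prime box), the D-box bound by DBP, TTATGTAA or TTACGTAA, and the ROR element, which is AGGTCA behind a short stretch rich in A and T. Both strands were read, the palindromic motifs were counted once, and no match overlapped another. These genes had 11 windows in all. The 3 printed are the only ones of them that hold the D-box, the ROR element or the E-box. They were picked for these matches, and whether the matches are bound was not tested. Each is read 5′ to 3′ along the gene, and capitals mark the matches. The Per2 window is chr9:99496994-99497243 on the minus strand, the Bmal1 window is chr1:176766078-176766327 on the plus strand, and the Nr1d1 window, before the second of 2 annotated starts, is chr10:84229455-84229704 on the minus strand.
Per2: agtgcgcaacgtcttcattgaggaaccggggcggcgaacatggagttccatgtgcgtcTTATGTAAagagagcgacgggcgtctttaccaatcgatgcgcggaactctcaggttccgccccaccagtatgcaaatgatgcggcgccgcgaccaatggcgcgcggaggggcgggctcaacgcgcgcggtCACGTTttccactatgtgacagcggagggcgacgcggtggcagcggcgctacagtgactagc
Bmal1: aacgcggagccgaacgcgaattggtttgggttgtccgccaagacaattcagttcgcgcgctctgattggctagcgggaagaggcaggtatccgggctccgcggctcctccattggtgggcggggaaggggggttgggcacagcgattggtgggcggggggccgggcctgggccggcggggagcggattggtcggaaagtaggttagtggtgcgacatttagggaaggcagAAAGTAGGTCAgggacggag
Nr1d1: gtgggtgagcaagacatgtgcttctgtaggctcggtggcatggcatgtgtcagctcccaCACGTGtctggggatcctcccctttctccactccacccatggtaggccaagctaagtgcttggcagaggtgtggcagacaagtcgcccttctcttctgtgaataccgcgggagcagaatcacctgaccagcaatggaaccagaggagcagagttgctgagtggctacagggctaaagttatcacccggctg

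Per2 held a D-box from base -192 to base -185, counted from the start, and an E-prime box from base -62 to base -57. Bmal1 held a ROR element from base -20 to base -10, and Nr1d1 held an E-box from base -191 to base -186. Cry2 and the other Nr1d1 window each held an E-prime box on the reverse strand. Of 33465 promoter windows of the same length, 5.59% held the E-box, 4.07% the E-prime box, 0.932% the D-box and 0.161% the ROR element. None of the 4 motifs was found in the windows of Per1, Per3, Nr1d2, Dbp and Clock, which says only that these letters are not in the 250 bases searched.

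**Figure D1:**
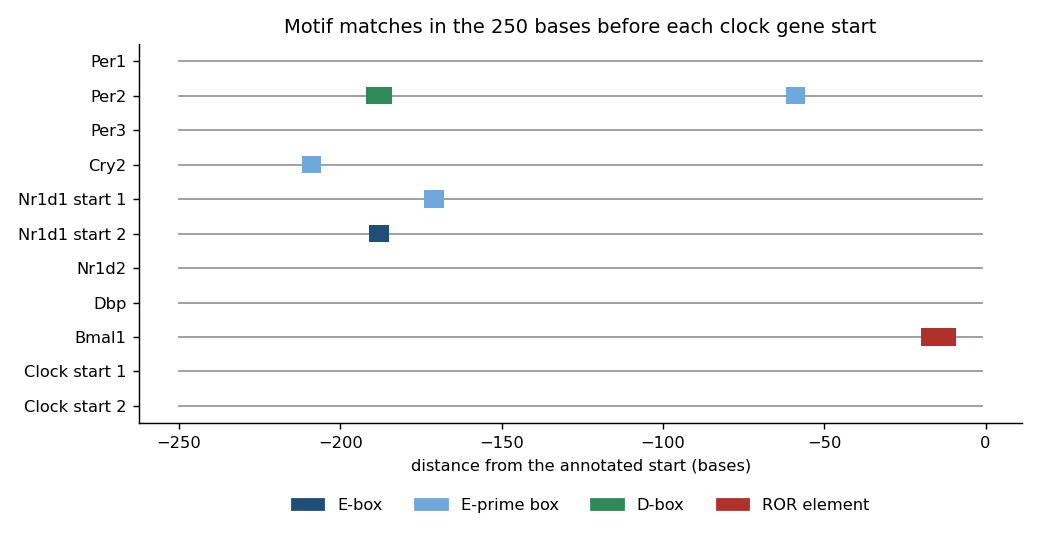
Motif matches in the 250 bases before each annotated start of the clock genes, with the distance from the start in bases on the horizontal axis and 1 line per window. Per2 holds a D-box and an E-prime box, Bmal1 a ROR element close to its start, and the 2 Nr1d1 windows an E-prime box and an E-box.

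The 3 Period genes, which encode the repressors of the loop, were highest on array 1. Signals are given as deposited, and differences between arrays as log2(signal + 16) after each array was centred on its median. Per1 (probe set 1374855_at) gave 242, 76.0 and 70.8 on arrays 1, 2 and 3, a mean of 130 ± 97.6 (SD, n = 3). Array 1 thus stood alone at 3.19 times the signal of array 2, while arrays 2 and 3 differed by 0.01 log2 units. Per2 (1368303_at) gave 719, 333 and 220.4, a mean of 424 ± 262 (SD, n = 3). Here all 3 arrays were apart: array 1 was at 2.16 times array 2, and array 2 at 1.51 times array 3. Per3 (1378745_at) gave 111, 60.9 and 35.1, a mean of 68.9 ± 38.4 (SD, n = 3). Its highest signal was 3.15 times its lowest, against 3.42 times for Per1 and 3.26 times for Per2. The log2 range over the arrays was 1.51 for Per1, 1.57 for Per2 and 1.25 for Per3, where the median named gene ranged by 0.34.

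Both Period genes with a second probe set had a dimmer one. For Per2, probe set 1378560_at gave 88.6, 6.39 and 67.2, so array 1 was again highest but array 2, not array 3, was lowest. The 2 Per2 probe sets thus disagreed on the order of arrays 2 and 3. For Per3, probe set 1388239_at gave 11.7, 4.19 and 3.43, below the array median on every array, with array 1 highest there too.

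The Cryptochromes, the partners of the Period proteins in repression, gave no common order. Cry1 (1392640_at) gave 76.2, 32.5 and 47.4, a mean of 52.0 ± 22.2 (SD, n = 3). Array 1 was again highest, but array 2 was the lowest, and it alone lay below its array's median. Cry2 (1372548_at) gave 171, 152 and 165, a mean of 163 ± 10.1 (SD, n = 3), with the smallest log2 range of the 10 genes, 0.18. Its dimmer probe set 1369446_at gave 31.9, 42.4 and 55.4, with array 3 highest and array 1 lowest, so the 2 Cry2 probe sets did not give the same order.

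The 2 Rev-erb genes, nuclear receptors that repress Bmal1, ran in opposite orders. Nr1d2 (1390430_at) gave 1112, 909 and 766, a mean of 929 ± 174 (SD, n = 3), and its probe set 1370541_at gave 593, 497 and 382. In both, array 1 was highest and array 3 lowest, with log2 ranges of 0.47 and 0.55, and the third probe set 1370540_at gave 54.3, 56.3 and 39.9, also lowest on array 3. Nr1d1 (1370816_at), in contrast, gave 106, 155 and 172, a mean of 144 ± 34.6 (SD, n = 3). Array 1 was its lowest, and arrays 2 and 3 differed by 0.21 log2 units. Its order of arrays was thus that of Bmal1, the gene its protein represses, and the reverse of that of Per1, Per2, Per3, Nr1d2 and Dbp. Nr1d1 is known to overlap the thyroid hormone receptor gene Thra on the opposite strand. Chosen after their values were seen, the 2 brighter Thra probe sets gave 67.7, 82.6 and 118, and 39.5, 54.8 and 70.2, the same order of arrays as Nr1d1. The third and dimmest Thra probe set gave 8.64, 1.62 and 0.552, the opposite order. The part of the overlap in the Nr1d1 signal was not tested.

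Dbp, a D-box binding factor whose mRNA is a direct output of CLOCK and BMAL1, gave 726, 556 and 373 (1387874_at), a mean of 552 ± 176 (SD, n = 3). The order of the arrays was that of Per2, Per3 and Nr1d2, and the log2 range was 0.87.

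The activators of the loop were highest on array 3. Bmal1 (1370510_a_at) gave 36.5, 44.7 and 85.5, a mean of 55.5 ± 26.2 (SD, n = 3), so array 3 was at 2.34 times array 1, while arrays 1 and 2 differed by 0.20 log2 units. On array 1 it lay below the array median. Clock was measured by 4 probe sets. The brightest, 1390199_at, gave 569, 537 and 619, a mean of 575 ± 41.4 (SD, n = 3). The others gave 441, 348 and 462 (1389456_at), 113, 98.4 and 119 (1380098_at) and 25.5, 16.4 and 25.8 (1369168_a_at). All 4 had array 3 highest and array 2 lowest, and their log2 ranges were small, at 0.27, 0.46, 0.30 and 0.44 in the same order.

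**Figure D2:**
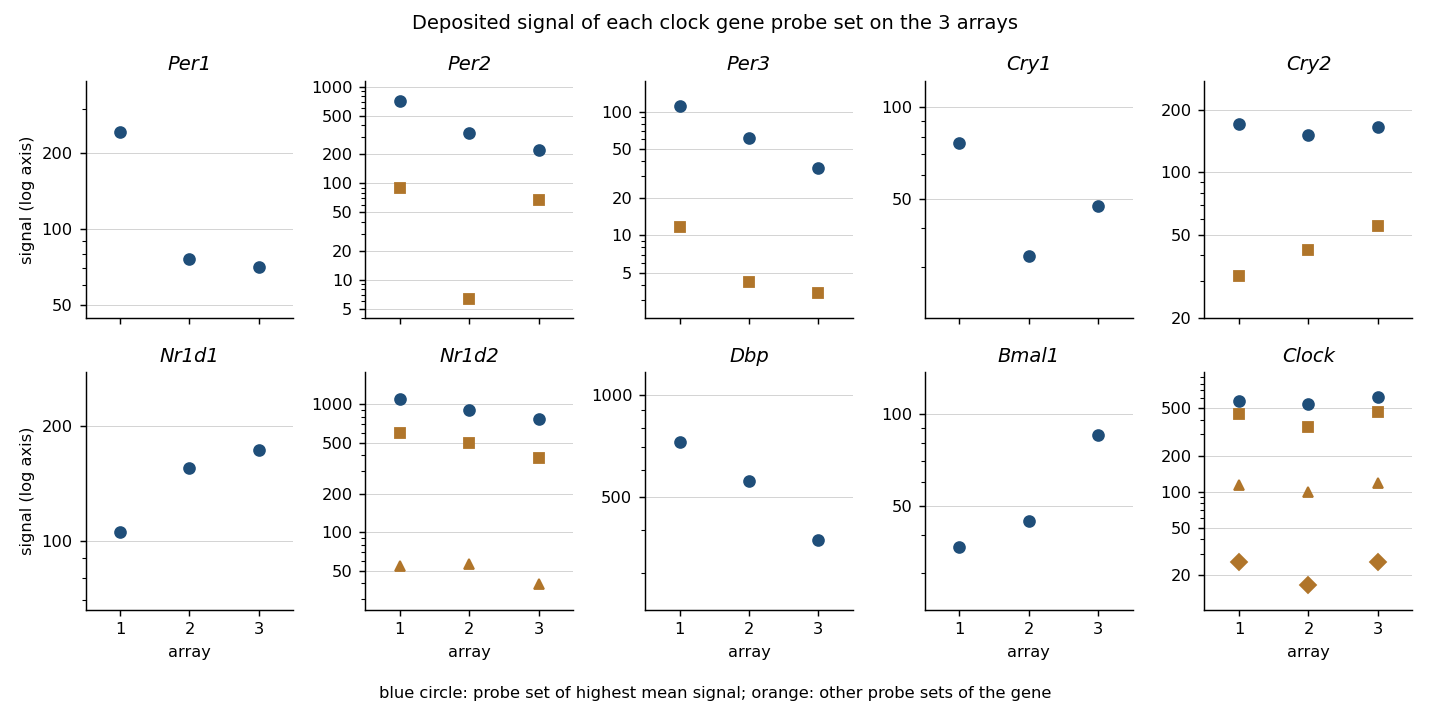
Deposited signal (log axis) of the 18 clock gene probe sets on arrays 1, 2 and 3, 1 panel per gene; blue circles are the probe set of highest mean signal and orange symbols the gene's other probe sets. Per1, Per2, Per3, Nr1d2 and Dbp are highest on array 1 in their brightest probe set, while Bmal1 and Nr1d1 are lowest there and highest on array 3.

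Over the 10 genes, each by its probe set of highest mean signal, 6 were highest on array 1, 4 on array 3 and none on array 2. Of all named genes 41.8%, 36.8% and 21.3% were highest on arrays 1, 3 and 2. Per1, Per2, Per3, Nr1d2 and Dbp, 5 of 10, had array 1 highest and array 3 lowest, against 17.0% of all named genes. Bmal1 and Nr1d1, 2 of 10, had array 3 highest and array 1 lowest, against 15.3%. The median deviation of the 8 repressor and output genes from their own means was 0.44, -0.09 and -0.33 log2 units on arrays 1, 2 and 3. For Bmal1 and Clock the median was -0.22, -0.16 and 0.38, and for all named genes 0.04, -0.06 and 0.02. Without array 1 the median of the 8 genes on array 2 changed sign, to 0.05.

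A range of 2-fold or more over the arrays was reached by 4 of the 10 genes, Per1, Per2, Per3 and Bmal1, against 4.46% of all named genes. By probe set it was 5 of 18, against 4.72% of all probe sets with 1 gene. Bmal1 was just inside, at a log2 range of 1.01, and Cry1 just outside, at 0.93. With 1.5-fold as the line, 7 of the 10 reached it, adding Cry1, Dbp and Nr1d1, against 21.9% of all named genes. The median log2 range of the 10 genes was 0.90. The share was also taken by level of signal, with limits chosen after the values were seen. Of the 6 clock genes with a mean signal of 50 to 200, 3 reached 2-fold, against 2.72% of all genes of that level. Above 200 it was 1 of 4, Per2, against 1.37%. With array 1 left out, 0 of the 10 genes differed by 2-fold between the remaining arrays, against 2.11% of all named genes. By probe set it was 1 of 18, for which no share over all probe sets was taken. Without array 2 the count was 4 genes, against 2.14%, and without array 3 it was 2 (Per1 and Per2), against 1.93%. Each array was a single measurement of each probe set, so no error could be set on the value of 1 array.

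**Figure D3:**
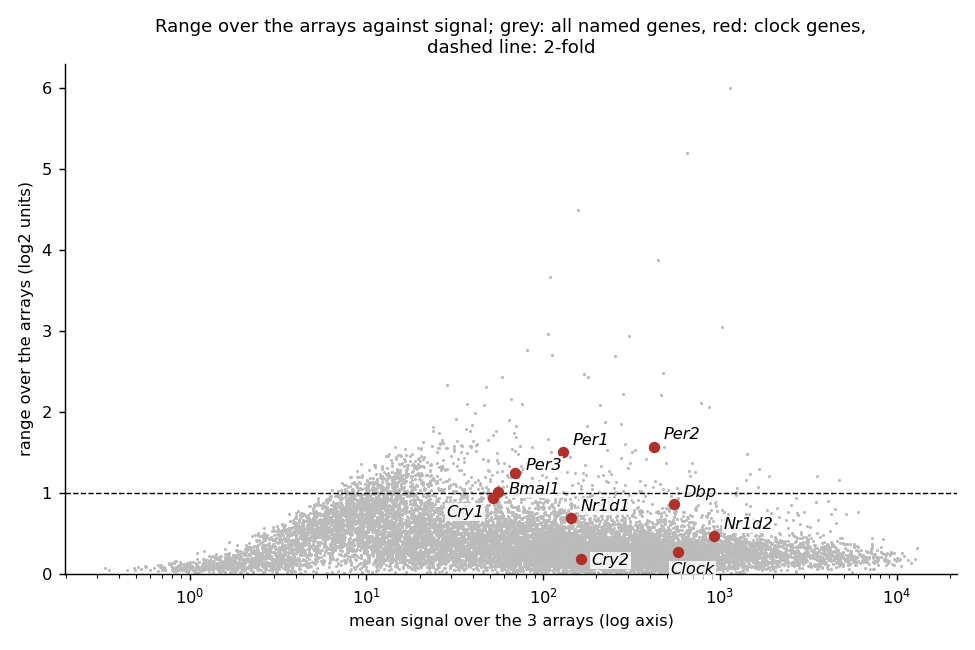
Range over the 3 arrays (log2 units) against mean signal (log axis) for all named genes in grey and the 10 clock genes in red; the dashed line marks 2-fold. Per2 and Per1 lie highest among the clock genes, at 1.57 and 1.51, and Cry2 and Clock lowest, at 0.18 and 0.27.

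The loop's further regulators were taken from a list of 24 genes, of which 19 were measured and 2 reached 2-fold, Usp2 and Nfil3, against the 4.46% of all named genes. Nfil3, a repressor that competes with DBP for the D-box, gave 8.38, 18.2 and 43.5, low on array 1 as Bmal1 was. It was dim, below the array median on arrays 1 and 2. Npas2, a stand-in for CLOCK, gave 71.3, 139 and 150.0, a log2 range of 0.99 in the same order. Usp2, a deubiquitinase whose mRNA cycles in many tissues, gave 509, 196 and 201, with array 1 alone high as for Per1. Hlf and Tef, which belong with Dbp to the PAR bZIP factors, gave 457, 275 and 265, and 288, 274 and 213. Both were highest on array 1, Hlf with a log2 range of 0.71 and Tef of 0.35. Wee1, a cell cycle kinase gene that in mouse is a target of CLOCK and BMAL1, gave 239, 136 and 126. Rora, which activates Bmal1 through the ROR element, gave 195, 145 and 160, Csnk1d, whose kinase marks Period proteins for breakdown, gave 561, 445 and 471, and Bhlhe40 gave 221, 202 and 238. Their log2 ranges of 0.40, 0.33 and 0.30 were close to that of the median gene. Over the 19 genes, 12 were highest on array 1, where 41.8% of all named genes were highest, and the median deviation was 0.14, -0.11 and -0.12 on arrays 1, 2 and 3.

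Per1 is also a direct target of the glucocorticoid receptor, and a list of 12 glucocorticoid response genes, Per1 included, was read for that reason. The list was written with earlier results of these data known. Of its 10 measured genes other than Per1, 8 were highest on array 1, against 41.8% of all named genes. Of the 12 proximal tubule markers read below, 9 were also highest on array 1, so such a share is not particular to this list. Of the 10 genes, 1 reached 2-fold, Ddit4, against 4.46% of all named genes. Ddit4, an inhibitor of growth signalling, gave 469, 118 and 243. Sgk1, a kinase gene that promotes sodium reabsorption, gave 4879, 2630 and 2964, and Tsc22d3 gave 863, 503 and 490.5. Fkbp5, a chaperone of the receptor, gave 156, 95.5 and 105. The exceptions were Dusp1, a phosphatase gene, lowest on array 1 with signals of 249.8, 263 and 285, and Klf9, highest on array 2 at 2304, 2380 and 2002. The median deviation of the 10 genes was 0.33, -0.15 and -0.12 on arrays 1, 2 and 3. Whether these genes and Per1 share a source of variation was not tested.

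**Figure D4:**
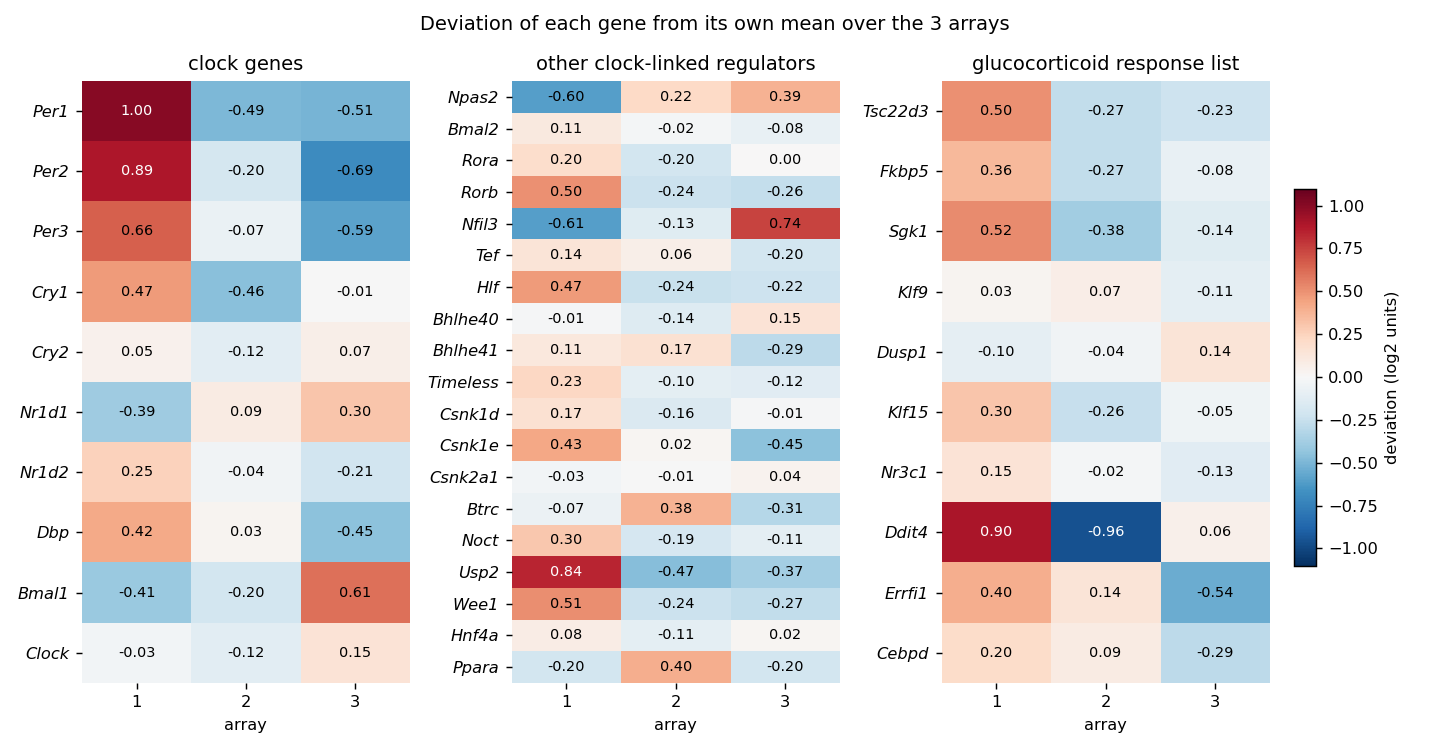
Deviation of each gene from its own mean over the 3 arrays, in log2 units of log2(signal + 16) after centring of each array, with 1 column per array; red is above the gene's mean and blue below. The Period genes, Usp2 and Ddit4 are most above their means on array 1, and Bmal1 and Nfil3 on array 3.

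By a set rule, the 5 genes nearest in pattern to each of the 2 widest ranging members were found among 203 other genes above the median level with a range of 2-fold or more. Likeness was the Euclidean distance between deviations on the 3 arrays. Nearest to Per2 were Tmem252 (795, 413 and 246, distance 0.12), Cks2 (0.19), Mylk3 (0.22), Maip1 (0.26) and Per3 (0.28). Nearest to Per1 were Guca2b (168, 46.5 and 46.4, distance 0.06), Maip1 (0.11), Usp2 (0.21), Robo3 (0.22) and Arl16 (0.25). Over only 3 arrays many genes share an order.

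The samples were also read for markers of cell types. All 12 proximal tubule markers lay above the median of each array. Of them 0 ranged by 2-fold, against 4.46% of all named genes and 1.37% of those with a mean signal above 200, as all 12 had. Their summed signals were 85102, 76919 and 81233 on arrays 1, 2 and 3. Lying above the median does not set the proximal tubule apart, since 5 of 6 thick ascending limb and all 5 measured endothelial markers did too. Mean signals ran from 2279 (Slc5a12) to 10604 (Gatm) for proximal markers, and from 58.6 (Cldn19) to 4942 (Umod) for thick limb markers. Marker lists of other cells differed in the array where they were highest. Array 3, where 36.8% of all named genes were highest, was also the highest for Bmal1, Nr1d1, Npas2 and Nfil3. The same held for Cry2, Clock and the listed regulators Bhlhe40 and Csnk2a1, at small log2 ranges of 0.18, 0.27, 0.30 and 0.07. All 5 measured endothelial markers were lowest on array 1, where 26.4% of all named genes were lowest, and 3 were highest on array 3. Their summed signal was 756, 1059 and 1269. Of 8 collecting duct markers 7 were highest on array 3, with a summed signal of 1130, 1025 and 1166. Only 3 of the 8 lay above the median of all 3 arrays. Most of the sum was Aqp3, at 940, 808 and 858, which was highest on array 1. The water channel gene Aqp2 gave 4.25, 4.80 and 32.9, below the median of each array. All 3 measured distal tubule markers were highest on array 3, with sums of 888, 804 and 1191, but Pvalb was dim, at 1.31, 2.82 and 3.43. Of 6 smooth muscle and stroma markers 4 were highest on array 3 and 4 lowest on array 1, with sums of 148, 164 and 188. Of these 6 markers 2 lay above the median of all 3 arrays. In other lists the order differed or was mixed. Of 6 thick ascending limb markers 4 were highest on array 1, with sums of 12564, 10490 and 11143. Of 6 macrophage markers 4 were highest on array 3. Their sum was highest on array 1, at 5080, 3134 and 4967, but nearly all of it came from Cd74, at 4952, 3011 and 4827. Podocyte markers summed to 150.4, 193 and 158, highest on array 2, and lymphocyte markers to 62.2, 59.3 and 60.2. On array 1, where the Period genes were high, the globin gene Hbb gave 173, against 83.2 on array 2 and 74.4 on array 3, but the other 2 red blood cell markers were not highest there, and the list summed to 185, 90.04 and 102. No marker was listed at 0. The part of other cells in the clock gene signals was not tested, and in such bulk samples fewer cells of a type and less RNA per cell cannot be told apart. The median signal of the arrays was 37.1, 37.4 and 34.9, and the 75th percentile 181, 167 and 167. The ratio of 3' to 5' control probe sets was 3.85, 3.28 and 3.66 for beta-actin. For GAPDH that ratio was 1.52, 1.52 and 1.40, another order of the arrays. The part of RNA quality in the clock gene differences was not tested.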

How the data were processed

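Total RNA of 3 tubule preparations was hybridised as biotin-labelled cRNA to Affymetrix rat arrays, per the labels' protocols. The authors deposited linear signal intensities, 31099 probe sets per array, 57 of them controls. The summarisation software and the scaling between arrays are not given in the sources used here. Gene names came from the platform annotation: 20826 probe sets named 1 gene, 436 several and 9780 none, and 20758 were matched by gene ID to RefSeq, which changed 0 symbols.

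Signals were compared between arrays as log2(signal + 16) centred on the array median, with Python 3.11.15, numpy 2.4.6 and pandas 2.3.3. A difference on this scale understates the change of dim probe sets. A gene took its probe set of highest mean signal. With 1 group and no control no test was run, and members were read against the share of all genes. The number of arrays limits the precision. The members and lists were chosen with earlier results of these data known. Genes named are the members, listed genes and the 5 nearest patterns to each of 2 members. Alternatives were pseudocounts of 1 and 64, no centring, centring on the 75th percentile, quantile normalization, averaging of a gene's probe sets, probe sets without a suffix, probe sets above the median level, a line at 1.5-fold and each array left out. The range calculation was tested on simulated data.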

Additional observations from a re-analysis of the deposited data

How the results depend on the processing

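With a pseudocount of 64, which flattens dim probe sets, 2 member genes reached 2-fold, against 0.53% of all named genes, and 3 member probe sets did. With a pseudocount of 1 the genes were 5, with Cry1 added, against 23.0% of all. Shares under the alternatives are of named genes, so they go with the gene counts and not with those of probe sets. No centring gave 3 genes, without Bmal1 at a log2 range of 0.95, against 4.32% of all genes. Averaging each gene's probe sets gave 3, without Per3, against 3.57%. Only probe sets without a suffix gave 3, since the Bmal1 probe set carries one, against 4.43%. Centring on the 75th percentile and quantile normalization each gave 4, against 4.63% and 4.35%. At 1.5-fold there were 7 genes and 9 probe sets, against 21.9% of all genes, and above the median level the share of all genes at 2-fold was 2.23%. By level, an alternative chosen after the data were seen, it was 1.37% above a signal of 200 and 2.72% from 50 to 200. With each array left out, the counts ran from 0 to 4 genes and from 1 to 4 probe sets, the share of all genes from 1.93% to 2.14%, and the median log2 range of the members from 0.36 to 0.78. On array 2 the median deviation of the 8 repressor and output genes then ran from -0.278 to 0.0467, and that of Bmal1 and Clock from -0.271 to 0.0285. The first changed sign without array 1 and the second without array 3. Those on arrays 1 and 3 kept their sign under every alternative run. With only probe sets without a suffix, however, Bmal1 dropped out and the second was Clock alone. It was then -0.03 on array 1 and 0.15 on array 3, against -0.22 and 0.38 with Bmal1. With a pseudocount of 64 the median log2 range of the members was 0.57. With probe sets averaged, the median deviation of the 8 genes on array 3 was -0.15. Of 109 ranges of single genes under the alternatives, 11 moved by more than 1 SD of that gene, 10 of them with an array left out. The causes were not tested. No paired analysis was possible because all arrays form 1 group.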

Other observations

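Of 20 genes listed as cycling in kidney or other tissues, 15 were measured besides Per1 and Dbp. None of the 15 ranged by 2-fold or more (0 of 15, against 4.46% of all named genes). Por, the electron donor of cytochromes P450, gave 1211, 705 and 953, with array 2 lowest. Slc9a3, the sodium-proton exchanger of the brush border, gave 1407, 1098 and 1091, and Alas1, the first enzyme of haem synthesis, gave 504, 400.3 and 377, both highest on array 1. Nampt, which makes the precursor of NAD, gave 284, 328 and 247, with array 2 highest. The median log2 range of the 15 genes was 0.34, as was that of all named genes, and 9 of the 15 were highest on array 1, against 41.8% of all named genes.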
